A study of Mus musculus with 4 samples.

Results

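The genes examined here encode the nuclear factor kappa B (NF-kB) pathway and the tumour necrosis factor (TNF) receptors that feed it, in group 1 innate lymphoid cells (ILC1s) of mouse liver. They are 37 named genes out of 18804 genes in the deposited table, and all 37 were present in it. They were picked for their place in the pathway, with earlier results of these data known. By role they are 9 receptors of the TNF receptor superfamily, 9 adaptors and signalling scaffolds, 5 kinase components, 5 NF-kB subunits, 5 IkB proteins and 4 regulators that edit or bind ubiquitin chains. ILC1s are liver-resident lymphocytes related to natural killer (NK) cells. One group was labelled Cd200r knockout (KO, replicates 1 and 2) and the other WT (replicates 1 and 3), and both came from liver ILC1s of mice aged 5 to 8 weeks at homeostasis. Cd200r encodes CD200R, an inhibitory receptor of leukocytes. Neither the knockout allele, nor the strain background, nor whether a library holds 1 mouse or a pool is stated in the labels. The p-values set the difference between the groups against the scatter of these 4 libraries within groups, moderated over all genes tested. That scatter may be technical and need not be variation between mice.

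NF-kB is a family of dimeric transcription factors that IkB proteins hold inactive in the cytoplasm. TNF receptors recruit TRAF adaptors and scaffolds of ubiquitin chains, which activate the TAK1 and IKK kinase complexes, and IKK marks IkB for destruction so that NF-kB enters the nucleus. Among the genes that NF-kB then switches on are its own inhibitors, IkB-alpha (Nfkbia), IkB-zeta (Nfkbiz, which can also activate a subset of targets) and A20 (Tnfaip3). These are textbook feedback targets, whose transcripts are often read beside the wiring upstream of them. In lymphocytes, receptors of this superfamily such as GITR, CD27 and CD137 act in costimulation and survival.

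Levels are in FPKM, a read density corrected for gene length and library size. Inferred depth was similar, at 41165587 and 39495619 counted reads in KO replicates 1 and 2, and 39350652 and 38972343 in WT replicates 1 and 3. At these depths 1 FPKM corresponds to 39.0 to 41.2 reads per kilobase. Cd200r1 had 110.7 and 103.7 FPKM in KO against 161.5 and 173.3 FPKM in WT, so the transcript was 1.56-fold lower in KO and not absent (log2 fold change −0.64, SE 0.09, adjusted p = 0.00451). All 13 ILC1 markers were measured, with summed levels of 8935 to 9992 FPKM in KO and 9894 to 9967 FPKM in WT. Of the 13, 0 rose and 2 (15.4%) fell in KO, Cd200r1 and the granzyme gene Gzmc, where 2.40% of all genes rose and 0.939% fell. A negative log2 fold change was seen for 10. The groups were apart with KO lower for 6 (46.2%) and with KO higher for 2 (15.4%, Rgs1 and Il7r). Of all genes, 21.7% were apart with KO lower and 24.3% with KO higher. Gzmc was at 116.3 and 94.6 FPKM in KO and 291.9 and 319.4 FPKM in WT. Markers of some other cell types moved with the genotype. Of those tested, 0 of 7 T cell, 0 of 5 B cell and 0 of 1 endothelial markers were called. Among hepatocyte markers 1 of 8 and among neutrophil markers 1 of 3 rose in KO, and 1 of 4 dendritic cell markers fell. Of the macrophage and monocyte markers, 9 of 12 tested rose in KO, and their summed level was 655.8 and 974.2 FPKM in KO against 247.7 and 226.3 FPKM in WT. Among that list the Kupffer cell markers Clec4f, Vsig4 and Cd5l were not called, Marco and Timd4 lay below the filter, and no marker was at 0 in all libraries. The log2 fold changes were 0.98 for Clec4f, 0.85 for Vsig4 and −0.04 for Cd5l, each with overlapping groups. Timd4 was at 0.234 and 1.93 FPKM in KO and 0.0 and 0.101 FPKM in WT. Marco was at 0.328 and 0.158 FPKM in KO and 0.554 and 0.36 FPKM in WT. Of the conventional NK markers, 10 of 12 tested rose, with sums of 309.8 and 666.2 FPKM in KO against 113.4 and 110.5 FPKM in WT. All 8 erythroid markers fell, with sums of 12513 and 14064 FPKM in KO against 24795 and 26908 FPKM in WT. In bulk samples such as these, fewer cells of a type and less RNA per cell cannot be told apart.

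The sequences upstream of the feedback targets are shown first, because NF-kB acts on them through kappaB sites. A window of 250 bases before a RefSeq transcript start (GRCm38.p6) was matched for 30 of the 37 genes and searched on both strands for the textbook kappaB consensus decamer. Of the 30, 11 (36.7%) held at least 1 match, against 400 of 7703 tested genes with a window (5.19%) and 1281 of all 32851 windows (3.9%). The genes were chosen as members of a pathway known to regulate itself, so this share is a description of them. By role the matches lay upstream of 3 of 4 ubiquitin regulators (Tnfaip3, Tnip1, Cyld), 2 of 3 subunits (Nfkb2, Rel), 2 of 4 IkB genes (Nfkbia, Nfkbie), 2 of 7 adaptors (Bcl10, Traf3), 1 of 4 kinase genes (Map3k7) and 1 of 8 receptors (Tnfrsf9). Among the feedback targets, Nfkbia had 1 window and Tnfaip3 had 2, and no window was matched for Nfkbiz. For each of these genes the window that holds a match is printed whole. The other Tnfaip3 window, before the start at 19011963, held no match and is not printed. The last 110 bases are printed for Tnip1, Nfkbie and Rel as members of the other inhibitor and subunit classes. All are RefSeq sequence, written 5′ to 3′ on the strand of the gene, with the matches in capitals and overlapping matches run together.
Nfkbia, chr12:55492648-55492897, minus strand: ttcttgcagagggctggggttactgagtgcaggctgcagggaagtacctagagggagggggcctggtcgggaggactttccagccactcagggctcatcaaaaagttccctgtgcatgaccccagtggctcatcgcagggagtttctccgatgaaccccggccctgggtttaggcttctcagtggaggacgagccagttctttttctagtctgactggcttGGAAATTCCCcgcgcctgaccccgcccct
Tnfaip3, chr10:19015411-19015660, minus strand: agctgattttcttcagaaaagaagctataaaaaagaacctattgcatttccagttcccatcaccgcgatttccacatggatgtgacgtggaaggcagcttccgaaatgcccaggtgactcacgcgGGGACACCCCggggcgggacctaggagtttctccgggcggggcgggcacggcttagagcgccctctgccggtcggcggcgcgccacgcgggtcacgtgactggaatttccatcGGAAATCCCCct
Tnip1, chr11:54962941-54963050, minus strand: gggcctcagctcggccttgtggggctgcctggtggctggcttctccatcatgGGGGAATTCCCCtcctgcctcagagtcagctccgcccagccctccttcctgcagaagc
Nfkbie, chr17:45555590-45555699, plus strand: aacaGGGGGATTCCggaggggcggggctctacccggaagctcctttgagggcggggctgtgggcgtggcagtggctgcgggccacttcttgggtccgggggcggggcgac
Rel, chr11:23770970-23771079, minus strand: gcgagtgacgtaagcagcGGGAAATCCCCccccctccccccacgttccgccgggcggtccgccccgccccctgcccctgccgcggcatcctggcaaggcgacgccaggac

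The match in Nfkbia begins 29 bases before the start, and those in Tnfaip3 begin 125 and 12 bases before it. In Nfkbie the match begins 106 bases and in Rel 92 bases before the start, with a second, overlapping one in Rel at 91. A match is a run of letters and not a measured site.

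The main comparison was the fit of KO against WT on log2(FPKM + 1) over the 9476 genes that averaged 1 FPKM or more, with limma and adjusted p-values under 0.05 called. A log2 fold change on this scale understates the change of low genes. Of the 37 genes, 35 were tested, 2 rose in KO (Tnfaip3 and Nfkbia), 0 fell and 33 were not called. Of the 11 members with a kappaB match, these 2 were called and 9 were not. Of the 18 tested members with a window and no match, 0 were called. A link between match and call was not tested. Over all genes tested, 2.40% rose and 0.939% fell (3.33% in either direction). At an unadjusted p under 0.05, 2 members were higher and 2 lower (Chuk and Tnfrsf4), where 15.5% of all genes reached that level in either direction. The groups did not overlap for 9 of the 35 with KO higher (25.7%) and for 6 with KO lower (17.1%), against 24.3% and 21.7% of all genes (46.0% in either direction). The median log2 fold change of the 35 was 0.04, beside 0.00 over all genes. The SE of a member ranged from 0.08 to 0.25. With no filter on low values limma called 0 genes at all (1898 at an unadjusted p under 0.05), so each call on a pathway gene named here ends under that setting. Without the mean-variance trend both members, Tnf, Dusp1 and Cd83 lost their calls, whereas Lta and Cxcl2 stayed past the threshold.

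Of the 3 feedback targets, Tnfaip3 and Nfkbia rose in KO and Nfkbiz did not pass the test. Tnfaip3 (GRCm38 chromosome 10, 19000910 to 19015410) encodes A20, which edits ubiquitin chains and dampens signalling from TNF receptors. It measured 105.1 and 64.5 FPKM in KO and 36.98 and 41.3 FPKM in WT. Both KO libraries lay above both WT libraries, but KO replicate 1 was 1.63 times KO replicate 2. The means were 84.8 ± 28.7 FPKM in KO and 39.1 ± 3.03 FPKM in WT (SD, n = 2 each), a 2.17-fold difference (log2 fold change 1.06, SE 0.19, 95% interval 0.65 to 1.47, limma adjusted p = 0.0113). It passed under 11 of 13 alternatives. Without KO replicate 1 the log2 fold change was 0.71 (adjusted p = 0.0067) and without KO replicate 2 it was 1.41 (adjusted p = 0.000171). KO replicate 1 had the higher Tnfaip3 value, whereas the macrophage and NK marker sums were higher in KO replicate 2. Their part in the result was not tested.

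**Figure D1:**
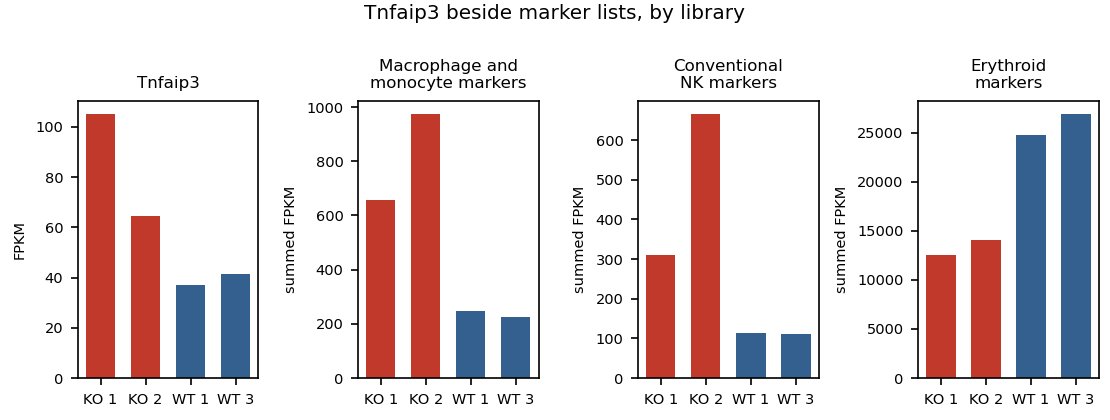
FPKM of Tnfaip3 and summed FPKM of the macrophage and monocyte, conventional NK and erythroid marker lists in each library, on linear axes, with the KO libraries to the left of WT. Bars are single libraries. Tnfaip3 is highest in KO replicate 1 (105.1 FPKM), the macrophage (974.2 FPKM) and NK (666.2 FPKM) sums are highest in KO replicate 2, and the erythroid sums are lower in both KO libraries.

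Nfkbia (chromosome 12, 55489409 to 55492647) encodes IkB-alpha, the classical inhibitor that NF-kB resynthesises after activation. It was among the most abundant members, at 303.8 and 277.6 FPKM in KO and 201.3 and 228.8 FPKM in WT. The KO values were close to each other and both above WT. The means were 290.7 ± 18.5 FPKM in KO and 215.0 ± 19.4 FPKM in WT (SD, n = 2 each), a 1.35-fold difference (log2 fold change 0.43, SE 0.09, 95% interval 0.22 to 0.64, limma adjusted p = 0.0334). The call was less steady than that of Tnfaip3. It was lost under 6 of 13 alternative settings, among them without KO replicate 1 (0.37, adjusted p = 0.059) and without WT replicate 1 (0.34, adjusted p = 0.322). Median-of-ratios scaling (adjusted p = 0.0502) and quantile normalization (0.36, adjusted p = 0.101) also ended it. The adjusted p ranged from 0.0213 to 0.348 over the 13 alternatives.

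The third feedback gene, Nfkbiz (chromosome 16, 55811375 to 55838954), was much lower in level. It measured 8.74 and 9.43 FPKM in KO and 7.87 and 7.05 FPKM in WT. The groups did not overlap, but the difference did not pass the test (log2 fold change 0.25, SE 0.17, 95% interval −0.13 to 0.64, limma adjusted p = 0.532). Dissociation and immediate-early genes, which respond to handling as feedback genes can, had 3 higher (17.6%) and 4 lower (23.5%) of 17 tested. Over all genes, 2.40% rose and 0.939% fell. The higher ones were Atf3, Nr4a1 and Dusp2, and the lower ones Jun, Hspa1a, Hspa1b and Gadd45g. Atf3 measured 10.3 and 7.49 FPKM in KO and 0.591 and 0.48 FPKM in WT. Jun measured 220.2 and 210.5 FPKM in KO and 343.7 and 345.9 FPKM in WT. Sums over the list were 4295 and 4102 FPKM in KO and 3783 and 4033 FPKM in WT. The part of these genes in the feedback values was not tested.

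**Figure D2:**
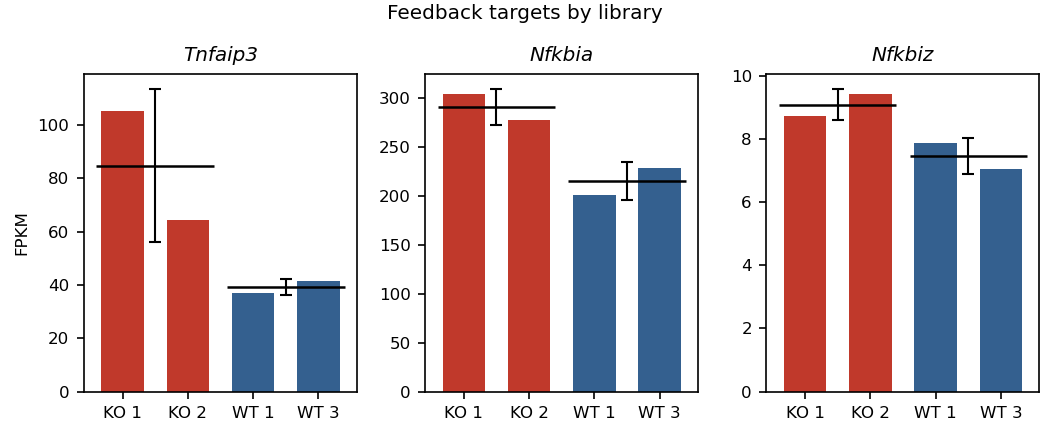
FPKM of Tnfaip3, Nfkbia and Nfkbiz in each library, with KO to the left of WT. Bars are single libraries, horizontal lines are group means and whiskers are SD (n = 2 each). Both KO bars are taller than both WT bars for all 3 genes, and the Tnfaip3 values of 105.1 and 64.5 FPKM in KO stand farthest apart.

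At the receptors, costimulatory members dominated and none was called. Tnfrsf18, which encodes GITR, was the most abundant at 518.4 and 496.6 FPKM in KO and 479.4 and 492.9 FPKM in WT, at the 98.6th percentile of tested genes in WT. Its KO and WT values differed little (log2 fold change 0.06, SE 0.08, 95% interval −0.11 to 0.24, limma adjusted p = 0.778). In the annotation 27.2% of its exon bases overlap the antisense gene Gm16008, and the libraries do not mark strand. Gm16008 itself measured 0.64 and 0.6 FPKM in KO and 1.12 and 0.803 FPKM in WT.

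Cd27, the receptor of CD70, and Tnfrsf9, which encodes CD137, followed at similar levels. Cd27 measured 108.5 and 107.6 FPKM in KO and 113.8 and 115.4 FPKM in WT (log2 fold change −0.08, SE 0.09, 95% interval −0.28 to 0.11). Tnfrsf9 measured 110.1 and 106.0 FPKM in KO and 105.9 and 115.2 FPKM in WT (log2 fold change −0.03, SE 0.09, 95% interval −0.24 to 0.18). The ranges of the 2 genes overlapped in both genotypes, so their order in level cannot be given.

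Both receptors of TNF itself were expressed. Tnfrsf1b, which encodes the lymphocyte-associated TNFR2, measured 41.1 and 32.9 FPKM in KO and 49.3 and 40.2 FPKM in WT, which overlapped (log2 fold change −0.27, SE 0.14, 95% interval −0.59 to 0.05, limma adjusted p = 0.413). Tnfrsf1a, which encodes the death-domain receptor TNFR1, measured 34.2 and 18.0 FPKM in KO and 28.8 and 29.5 FPKM in WT. The KO libraries lay on either side of WT and differed 1.9 times from each other (log2 fold change −0.22, SE 0.23, 95% interval −0.73 to 0.29, limma adjusted p = 0.713). Without KO replicate 1 the log2 fold change of Tnfrsf1a was −0.66 and passed the test (adjusted p = 0.0182), and without KO replicate 2 it was 0.22 (adjusted p = 0.569), so that its sign rests on which KO library is used.

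The remaining receptors were low. Tnfrsf14, which encodes HVEM, measured 2.18 and 3.06 FPKM in KO and 4.26 and 3.27 FPKM in WT, with no overlap (log2 fold change −0.40, SE 0.23, 95% interval −0.90 to 0.10). Tnfrsf4, which encodes OX40, measured 1.35 and 0.81 FPKM in KO and 2.78 and 1.82 FPKM in WT, also with no overlap. Its log2 fold change of −0.66 (SE 0.25, 95% interval −1.21 to −0.11, limma adjusted p = 0.221) was the most negative of the 35 and did not pass. Cd40 and Ltbr, receptors better known from B cells, myeloid cells and stroma, stayed below the mean of 1 FPKM. Cd40 was at 1.23 and 0.598 FPKM in KO and 0.872 and 0.419 FPKM in WT, and Ltbr at 0.741 and 0.446 FPKM in KO and 0.262 and 0.209 FPKM in WT. Of the 7 receptors tested with limma, 0 passed and 1 (Tnfrsf4) had an unadjusted p under 0.05. Their median log2 fold change was −0.22, with 1 positive and 6 negative values.

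**Figure D3:**
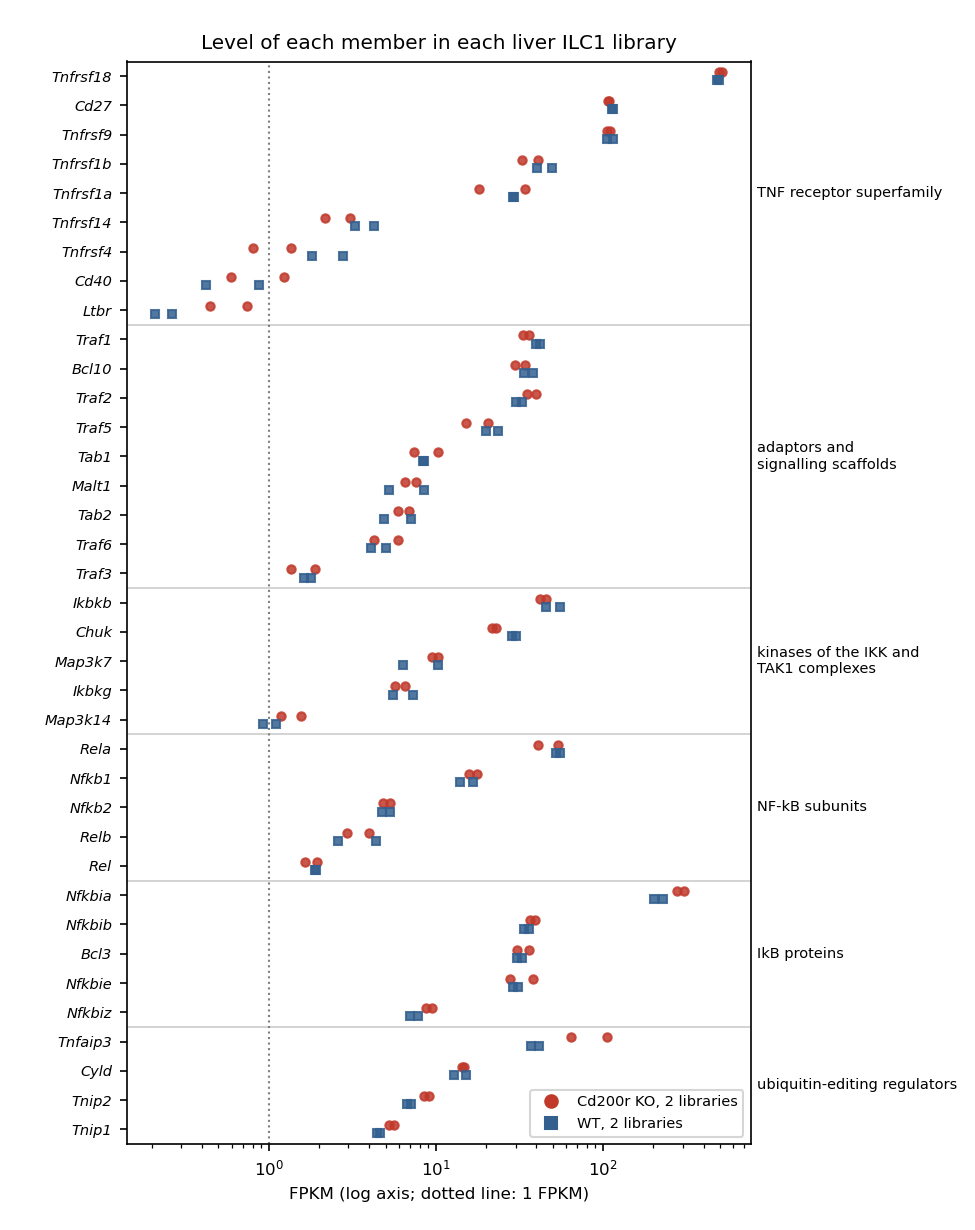
FPKM of the 37 genes in each library on a log axis, grouped by role, with KO points above WT points. GITR (Tnfrsf18), at 479.4 FPKM or more in every library, and Nfkbia stand above the other members, while Cd40, Ltbr, Map3k14, Traf3 and Rel lie near the bottom.

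Adaptors and scaffolds spanned a wide range of levels and a narrow range of differences. Traf1 and Traf2 form complexes at CD137 and TNFR2. Traf1 measured 36.3 and 33.3 FPKM in KO and 41.8 and 39.9 FPKM in WT (log2 fold change −0.23, SE 0.11, 95% interval −0.48 to 0.03, limma adjusted p = 0.389). Traf2 went the other way, with 35.3 and 39.5 FPKM in KO and 30.3 and 32.6 FPKM in WT (log2 fold change 0.24, SE 0.12, 95% interval −0.03 to 0.51, limma adjusted p = 0.379). For both, the 2 groups did not overlap and the difference did not pass the test.

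Bcl10, which joins CARD-family scaffolds to MALT1 downstream of antigen-type receptors, measured 34.1 and 29.8 FPKM in KO and 38.4 and 33.8 FPKM in WT (log2 fold change −0.17, SE 0.13). Traf5, an adaptor of CD27 and OX40, measured 20.6 and 15.2 FPKM in KO and 19.997 and 23.6 FPKM in WT (log2 fold change −0.28, SE 0.17, limma adjusted p = 0.465). Both overlapped between the groups. The ubiquitin-binding TAK1 partner Tab2, the TAK1 activator Tab1, the paracaspase Malt1 and the ubiquitin ligase Traf6 lay between 4.08 and 10.3 FPKM in all libraries. Traf3, which restrains the non-canonical branch, was at 1.35 and 1.89 FPKM in KO and 1.63 and 1.78 FPKM in WT. Over the 9 adaptors the log2 fold changes ran from −0.28 to 0.24 with a median of 0.04, and limma called 0, also with 0 at an unadjusted p under 0.05.

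Among the kinase components, Chuk was the one that came closest to a call. Chuk encodes IKK-alpha, the catalytic subunit that the non-canonical branch depends on. It measured 23.0 and 21.6 FPKM in KO and 30.2 and 28.5 FPKM in WT, with means of 22.3 ± 1.02 FPKM in KO and 29.4 ± 1.16 FPKM in WT (SD, n = 2 each). Both KO libraries lay below both WT libraries (log2 fold change −0.38, SE 0.12, 95% interval −0.66 to −0.11), but the limma adjusted p was 0.155, at an unadjusted p of 0.0113. It was called under 0 of the 13 alternatives, where its log2 fold change ranged from −0.43 to −0.33.

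Ikbkb, which encodes IKK-beta, the kinase of the canonical branch, was more abundant than Chuk in every library, at 45.6 and 41.8 FPKM in KO and 45.6 and 55.6 FPKM in WT (log2 fold change −0.20, SE 0.12, 95% interval −0.48 to 0.07, limma adjusted p = 0.483). The scaffold Ikbkg (NEMO) was at 6.58 and 5.71 FPKM in KO and 7.31 and 5.56 FPKM in WT, and 5.15% of its exon bases overlap G6pdx on the other strand. Map3k7, which encodes TAK1, was at 10.3 and 9.42 FPKM in KO and 10.3 and 6.4 FPKM in WT. The genotypes overlapped for Ikbkg and Map3k7, and for Ikbkb KO replicate 1 (45.56 FPKM) lay just under WT replicate 1 (45.64 FPKM). Map3k14, which encodes the non-canonical kinase NIK, was at 1.18 and 1.56 FPKM in KO and 1.11 and 0.928 FPKM in WT, with no overlap and no call. Of the 5 kinase genes limma called 0, and 1 (Chuk) had an unadjusted p under 0.05.

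The NF-kB subunits showed no difference that could be told from the spread. Rela, which encodes the transactivating p65, led at 54.0 and 40.8 FPKM in KO and 55.1 and 52.3 FPKM in WT (log2 fold change −0.19, SE 0.14, 95% interval −0.49 to 0.11, limma adjusted p = 0.56). Nfkb1, the precursor of its partner p50, measured 17.7 and 15.9 FPKM in KO and 16.8 and 13.998 FPKM in WT (log2 fold change 0.12, SE 0.15, 95% interval −0.22 to 0.46, limma adjusted p = 0.772). Groups overlapped for both genes.

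The subunits of the non-canonical branch were lower. Nfkb2, the precursor of p52, measured 5.34 and 4.83 FPKM in KO and 4.76 and 5.34 FPKM in WT (log2 fold change 0.01, SE 0.19, 95% interval −0.42 to 0.44). Relb measured 3.98 and 2.95 FPKM in KO and 4.39 and 2.61 FPKM in WT (log2 fold change 0.01, SE 0.25, 95% interval −0.54 to 0.56). Rel, which encodes the lymphoid c-Rel, was lowest at 1.95 and 1.65 FPKM in KO and 1.91 and 1.89 FPKM in WT (log2 fold change −0.05, SE 0.22, 95% interval −0.53 to 0.43). The intervals of all 5 subunits, Rela and Nfkb1 included, are wide enough to hold a change of either sign. Rela took 65.1% and 61.7% of the summed subunit FPKM in KO and 66.5% and 68.7% in WT, Nfkb1 took 21.3% and 24.1% in KO and 20.2% and 18.4% in WT, and the order Rela, Nfkb1, Nfkb2, Relb, Rel held in all 4 libraries. In limma 0 of the 5 passed, also with 0 at an unadjusted p under 0.05, and the groups of 0 of the 5 were apart.

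Besides Nfkbia and Nfkbiz, 3 IkB genes are among the members. Nfkbib, which encodes the slower-acting IkB-beta, was at 39.0 and 36.4 FPKM in KO and 33.7 and 36.0 FPKM in WT (log2 fold change 0.11, SE 0.12), and 14.5% of its exon bases overlap Ccer2 on the other strand. Nfkbie, which encodes IkB-epsilon, was at 37.9 and 27.7 FPKM in KO and 31.0 and 29.0 FPKM in WT (log2 fold change 0.11, SE 0.15). Bcl3, a nuclear IkB that binds p50 and p52 dimers, was at 36.2 and 30.6 FPKM in KO and 32.7 and 30.8 FPKM in WT (log2 fold change 0.07, SE 0.13). None of these 3 passed the test. Nfkbid, an IkB gene outside the members, was read with the further inhibitors. It was at 26.8 and 22.2 FPKM in KO and 33.7 and 26.2 FPKM in WT, which overlapped. Its log2 fold change was negative and did not pass (−0.27, SE 0.15, limma adjusted p = 0.439).

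The ubiquitin regulators other than A20 were much lower than it. Tnip1 and Tnip2 encode ubiquitin-binding partners of A20, also called ABIN proteins. Tnip2 measured 9.11 and 8.53 FPKM in KO and 7.12 and 6.75 FPKM in WT (log2 fold change 0.31, SE 0.17, limma adjusted p = 0.443). Tnip1 measured 5.26 and 5.65 FPKM in KO and 4.43 and 4.61 FPKM in WT (log2 fold change 0.23, SE 0.19, limma adjusted p = 0.631). Both were higher in each KO library than in each WT library without passing. Cyld, a deubiquitinase of the same signalling complexes, was at 14.3 and 14.7 FPKM in KO and 15.1 and 12.9 FPKM in WT (log2 fold change 0.05). Over the 9 IkB genes and ubiquitin regulators among the members, all 9 log2 fold changes were positive. This held under each of the other scalings run. For 6 of 9 the groups were apart with KO higher, as they were for 24.3% of all genes. Only 2 of the 9 passed the test, and there were 7 positive values without KO replicate 1 and 8 without WT replicate 3. These members include the 3 feedback genes and were chosen with earlier results known. The shared sign did not extend to inhibitors outside the members. Of 9 further inhibitors tested, 6 log2 fold changes were positive and 3 negative, Nfkbid among the negative ones, with a median of 0.01.

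**Figure D4:**
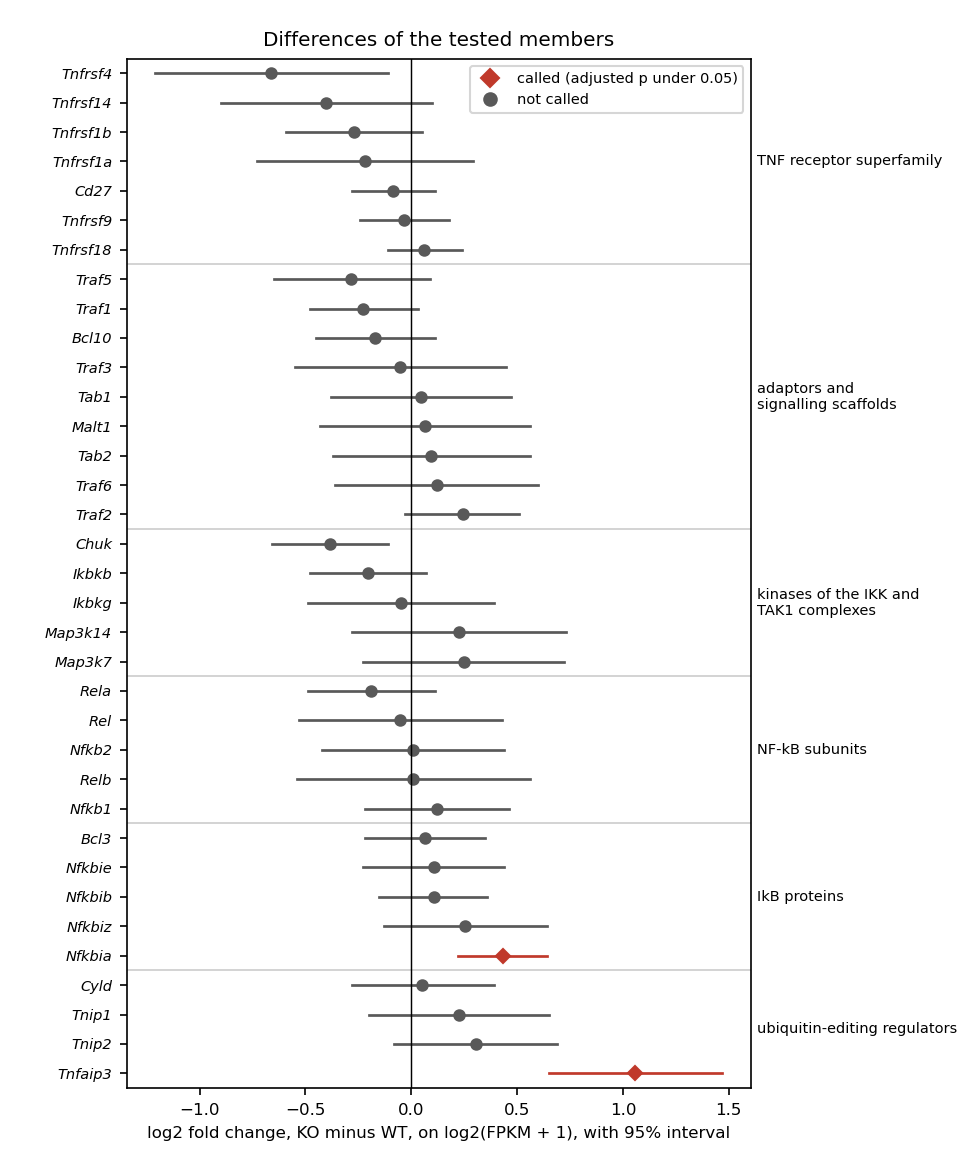
Log2 fold change, KO minus WT on log2(FPKM + 1), of the 35 tested genes by role, with 95% intervals from limma. The intervals of Tnfaip3 (0.65 to 1.47) and Nfkbia (0.22 to 0.64) lie above 0, those of Chuk and Tnfrsf4 lie below 0 without a call, and the others include 0.

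The wiring and the feedback genes are set side by side here. Of the 21 receptors, adaptors and kinase genes tested, limma called 0, with 2 at an unadjusted p under 0.05. With 3.33% of all genes called in either direction, a count of 0 in a list of this size is near the background. Their median log2 fold change was −0.05, with 8 positive and 13 negative values between −0.66 and 0.25. Of the 3 feedback genes 2 were called, and their median was 0.43. Apart from the feedback genes, the other 32 members had 0 calls in limma, also near that background, and a median of 0.01, with 17 positive and 15 negative values. The feedback genes were grouped apart with these results known, so no test was made of the contrast between the classes.

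The same values can be given per library, which adds no independent evidence because the feedback genes were picked with them known. The mean log2(FPKM + 1) of the 3 feedback genes was 6.09 and 5.85 in KO and 5.35 and 5.42 in WT. That of the 21 wiring genes was 4.14 and 4.03 in KO and 4.24 and 4.11 in WT. The difference between the classes was 1.95 and 1.82 in KO and 1.11 and 1.31 in WT. The summed FPKM of the classical inhibitors Nfkbia, Nfkbib and Nfkbie was 4.59 and 5.17 times that of the 5 subunits in KO and 3.21 and 3.86 times in WT. This is a ratio of transcripts, and protein was not measured.

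Genes of the pathway outside the 37 were read from 5 further lists, with 79 of 108 genes tested. Of these 4 rose (5.06%) and 1 fell (1.27%), against 2.40% and 0.939% of all genes, with a median log2 fold change of 0.05. The ligands gave a pair of calls in opposite directions. Tnf, the ligand of TNFR1 and TNFR2, measured 15.4 and 18.2 FPKM in KO and 28.2 and 34.0 FPKM in WT, 1.85-fold lower in KO (log2 fold change −0.85, SE 0.15, limma adjusted p = 0.0105). Lta, which encodes lymphotoxin-alpha and lies beside Tnf on chromosome 17, measured 6.90 and 7.42 FPKM in KO and 3.05 and 2.57 FPKM in WT, 2.55-fold higher in KO (log2 fold change 1.10, SE 0.20, limma adjusted p = 0.0125). Both calls were lost without WT replicate 3, where the log2 fold change was −0.72 for Tnf (adjusted p = 0.0712) and 1.01 for Lta (adjusted p = 0.0606).

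The third gene of that locus, Ltb, encodes lymphotoxin-beta and was far more abundant. It measured 686.4 and 702.7 FPKM in KO and 622.7 and 655.6 FPKM in WT, and did not pass (log2 fold change 0.12, SE 0.08, limma adjusted p = 0.51). Cd40lg, the ligand of CD40, measured 8.71 and 4.79 FPKM in KO and 2.45 and 3.93 FPKM in WT without a call (log2 fold change 0.86, SE 0.28, limma adjusted p = 0.147). Over the 10 ligands tested the median was −0.01. Of the 8 further receptors tested limma called 0, where 3.33% of all genes were called, also with 0 at an unadjusted p under 0.05. Their median was 0.13. Fas had the smallest p of them, at 4.61 and 7.53 FPKM in KO and 2.20 and 5.68 FPKM in WT.

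The proximal signalling genes, among them adaptors, ubiquitin ligases and kinases, resembled the wiring. Limma called 0 of 27, where 3.33% of all genes were called, with 3 at an unadjusted p under 0.05 and a median of −0.05. Otulin, a deubiquitinase that removes linear chains, came closest at 121.7 and 140.7 FPKM in KO and 96.8 and 99.2 FPKM in WT (log2 fold change 0.41, SE 0.10, limma adjusted p = 0.0556). It passed under 2 of 13 alternatives, one of them without KO replicate 1 (0.52, adjusted p = 0.0125). Of the 9 further inhibitors tested, 1 rose (11.1%, against 2.40% of all genes) and 0 fell. This was Dusp1, a phosphatase of MAP kinases, at 1566 and 1524 FPKM in KO and 811.3 and 1000 FPKM in WT (log2 fold change 0.78, SE 0.10, limma adjusted p = 0.00229).

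The list of textbook NF-kB target genes held neither the feedback genes nor Tnf. It gave 2 rises and 0 falls among 25 tested (8%), where 2.40% of all genes rose, with a median of 0.07. Tnf, itself an NF-kB target, was counted with the ligands and was called lower in KO (log2 fold change −0.85), so the 0 falls hold for this list only. Cxcl2, a neutrophil-attracting chemokine, measured 5.29 and 5.38 FPKM in KO and 0.493 and 1.23 FPKM in WT (log2 fold change 1.80, SE 0.24, limma adjusted p = 0.00341). Cd83, a surface marker of activated cells, measured 11.4 and 14.7 FPKM in KO and 4.49 and 7.53 FPKM in WT (log2 fold change 1.03, SE 0.23, limma adjusted p = 0.0367), and its call was lost when KO replicate 2 was left out (0.86, adjusted p = 0.153) and when WT replicate 1 was (0.71, adjusted p = 0.191), and with quantile normalization (adjusted p = 0.0676). Macrophages express both genes, and 9 of 12 macrophage and monocyte markers rose in the same libraries. Lyz2 of that list stood at 526.7 and 771.1 FPKM in KO and 213.3 and 193.0 FPKM in WT, and the part of these cells in the 2 rises was not tested.

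Over the 25 targets tested, called ones included, 16 log2 fold changes were positive and 9 negative. The groups were apart with KO higher for 8 (32.0%) and with KO lower for 3 (12.0%), against 24.3% and 21.7% of all genes. Among the uncalled targets with the smallest p, Irf1 was lower in KO, and Cxcl10, Il2ra and Ccl4 were higher. Irf1, a transcription factor also induced by interferon, measured 179.3 and 169.9 FPKM in KO and 232 and 211.9 FPKM in WT (log2 fold change −0.34, SE 0.09, limma adjusted p = 0.0728). Cxcl10, an interferon-induced chemokine, measured 13.5 and 17.8 FPKM in KO and 10.5 and 7.20 FPKM in WT (log2 fold change 0.76, SE 0.20, limma adjusted p = 0.0793). Il2ra measured 3.34 and 3.7 FPKM in KO and 1.64 and 2.23 FPKM in WT (log2 fold change 0.63, SE 0.22, limma adjusted p = 0.183). Ccl4 measured 2265 and 2110 FPKM in KO and 1870 and 1895 FPKM in WT (log2 fold change 0.22, SE 0.08, limma adjusted p = 0.195). For each of these genes the groups did not overlap.

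**Figure D5:**
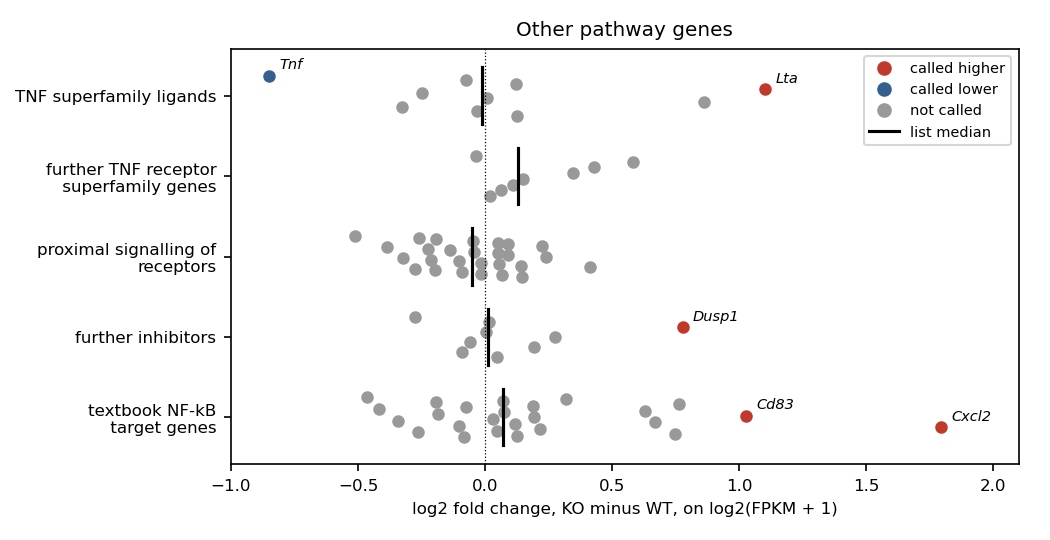
Log2 fold change, KO minus WT on log2(FPKM + 1), of the 79 tested genes of 5 further pathway lists. Points are genes and black bars are list medians. Tnf (−0.85) is the one call below 0, and Lta, Dusp1, Cd83 and Cxcl2 are the calls above 0.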

How the data were processed

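Liver ILC1s of Cd200r knockout and WT mice gave 2 RNA-seq libraries each. Per the labels' protocols, RNA was extracted with TRIzol, amplified as full-length cDNA and made into libraries with a transposase kit, which does not mark strand. The submitters' processing notes name fastp, HISAT2, HTSeq, DESeq2, R 3.2.0 and mm10, with no role or order. The authors deposited FPKM and no counts, with no stated scaling between libraries, so no count test was run. Depth was inferred from the steps of low values in 472 single-exon genes, as the depth that best brought them to whole reads. Of the 114 to 133 low values per library, 71.5% to 73.7% then lay within 0.05 of a whole read. Because depth was chosen for this closeness, the share is no independent check of it.

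The 9476 genes that averaged 1 FPKM or more were compared on log2(FPKM + 1), with limma 3.58.1 (two-sided, mean-variance trend, no covariate) in R 4.3.3 and Benjamini-Hochberg adjustment over all of them. An adjusted p under 0.05 was called. An exact permutation test of 2 against 2 cannot go below 0.333. The fit was also run on 20 simulated data sets of KO against WT with 9476 genes. Their noise was normal, with variances that limma had itself fitted, and changes were put in on the log2(FPKM + 1) scale. There it called 72.5% of the 2-fold and 99.7% of the 4-fold changes on that scale. Of its calls, 4.98% fell on unchanged genes. Because the simulated noise followed the model of the fit, these shares cannot show how reliable the calls on the real libraries are.

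The members and the other lists were chosen with earlier results of these data known. Named genes are all members, plus the called genes and up to 4 with the smallest p in each further list, Cd200r1, Tnf, Lta and Ltb. Coordinates and promoters are from RefSeq GRCm38.p6 and exon overlaps from GENCODE M21. Scaling, filter, pseudocount, variance model and each library left out were tried as alternatives.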

Additional observations from a re-analysis of the deposited data

How the results depend on the processing

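Under the 13 alternatives, 32 of the 33 uncalled members were called in none, and Tnfrsf1a in 1. The 2 members called higher became 0 with no filter and 0 with no mean-variance trend in limma, although 3 members were higher at an unadjusted p under 0.05 with no filter and 2 with no trend. They became 1 with median-of-ratios scaling, 1 with quantile normalization and 1 to 2 with a library left out (1 without KO replicate 1 or WT replicate 1), where Tnfaip3 remained called. Members called lower were 0 to 1 with a library left out. Over all genes, 227 higher became 0 with no filter, 151 with a mean of at least 5 FPKM, 57 with no trend and 145 (without KO replicate 2) to 336 (without KO replicate 1) with a library left out. The 89 lower became 0 with no filter, 13 with no trend and 50 (without WT replicate 3) to 217 (without KO replicate 1) with a library left out. With no filter 1898 genes had an unadjusted p under 0.05. Other pathway genes, 4 higher and 1 lower, became 0 and 0 with no filter and 2 and 0 with no trend; with quantile normalization 2 were lower, and with a library left out 4 to 6 were higher and 0 (without WT replicate 3) to 3 (without KO replicate 1) lower. The median of the subunits, 0.01, ranged from −0.13 to 0.07 with a library left out, and that of the ubiquitin regulators, 0.27, was 0.17 with a pseudocount of 5. The cause of these changes was not tested. With 2 libraries a group, leaving 1 out leaves a lone sample that is assumed to vary like the other group. No paired analysis was possible because the groups share only replicate number 1.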
